A study of Mus musculus with 8 samples.

Results

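The LIF and STAT3 signalling genes examined here are Lifr, Il6st, Jak1, Jak2, Stat3, Socs3, Pim1 and Pim3. They were taken by gene symbol from deposited tables of 24505 genes, and all 8 were found. All 8 also passed the filter on low values, at least 1 RPKM (reads per kilobase of gene, scaled to library size) in at least 2 libraries, which 13428 genes passed. The RNA came from mouse embryonic stem cells of a line labelled INO80 CKO, in which Ino80, the ATPase gene of the INO80 chromatin remodelling complex, is deleted by induction. There were 8 libraries, 2 in each of 4 groups: primed knockout (KO), primed wild type (WT), naive KO and naive WT. Primed cells grew on fibronectin in N2B27 medium with FGF2 at 12 ng/ml, Activin A at 20 ng/ml and the tankyrase inhibitor XAV-939 at 2 uM, without LIF. Naive cells grew on gelatin in N2B27 medium with the MEK inhibitor PD0325901, the GSK3 inhibitor CHIR99021 and LIF at 1000 units/ml. To delete the gene, cells had 100 nM 4-OHT in the medium for 2 days and were collected 2 days later. All 4 groups carry the same line label. The sources used here do not say what drives the recombinase, nor if the WT cells had 4-OHT too.

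LIF is the cytokine that keeps mouse embryonic stem cells in self-renewal. It binds the receptor chain LIFR, which joins the shared signalling chain gp130, encoded by Il6st, and the JAK kinases bound to these chains then phosphorylate docking sites and STAT3. Phosphorylated STAT3 forms dimers, enters the nucleus and binds DNA at motifs of the form TTCNNNGAA. Among its targets are Socs3, whose protein blocks the JAK kinases at gp130 and so closes a feedback loop, and Pim1 and Pim3, serine/threonine kinases of growth and survival. In the naive state STAT3 also acts on transcription factors of the pluripotency network such as Klf4 and Tfcp2l1.

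Socs3, Pim1 and Pim3 are the genes of the 8 taken here as STAT3 targets. Whether others of the 8 are targets too was not assessed. The 250 bases before the annotated starts of Socs3, Pim1 and Pim3 are shown as read from RefSeq (build GRCm38.p6). The deposited values were made on mm9 and carry no coordinates. The Socs3 window is chr11:117969367-117969616 on the minus strand, the Pim1 window chr17:29490535-29490784 on the plus strand, before the first of 2 annotated starts, and the Pim3 window chr15:88861944-88862193 on the plus strand. Sequences run 5′ to 3′, and capitals mark each match to TTCNNNGAA, which reads the same on both strands.
Socs3: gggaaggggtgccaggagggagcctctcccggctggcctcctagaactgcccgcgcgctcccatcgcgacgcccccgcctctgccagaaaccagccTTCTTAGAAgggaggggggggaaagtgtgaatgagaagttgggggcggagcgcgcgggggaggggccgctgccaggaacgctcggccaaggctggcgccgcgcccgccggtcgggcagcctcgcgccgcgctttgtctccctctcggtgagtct
Pim1: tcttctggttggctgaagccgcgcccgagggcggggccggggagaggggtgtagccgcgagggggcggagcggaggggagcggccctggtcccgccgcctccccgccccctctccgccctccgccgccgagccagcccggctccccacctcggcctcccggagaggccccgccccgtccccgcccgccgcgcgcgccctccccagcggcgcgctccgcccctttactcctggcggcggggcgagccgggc
Pim3: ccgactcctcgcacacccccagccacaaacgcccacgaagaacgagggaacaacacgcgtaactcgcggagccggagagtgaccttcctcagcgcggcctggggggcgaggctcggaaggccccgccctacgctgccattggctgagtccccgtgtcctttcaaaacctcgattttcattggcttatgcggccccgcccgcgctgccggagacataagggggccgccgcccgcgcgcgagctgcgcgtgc
The Socs3 window holds 1 match, which begins 154 bases before the start. The windows of the other 7 genes, 9 windows in all with the second starts of Lifr and Pim1, hold none. Of 32851 RefSeq mouse windows of this length, 7.02% hold at least 1 match. These matches describe the letters of the window and not binding.

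The RPKM values appear to have been scaled further, separately in the states, by a method the sources used here do not state. No value is 0. Of the pairs of genes with equal values in a library, 3403 in each primed and 3049 in each naive library, 100% were also equal in every library of the same state, but 64.5% of the primed and 75.4% of the naive pairs were equal throughout the other state. Any such scaling would bear on the differences between libraries. As deposited, the median tested gene stood at 8.06 and 7.60 RPKM in primed KO libraries and at 11.5 and 15.3 RPKM in primed WT libraries, and the median difference of log2(RPKM + 1) over all tested genes was -0.53. For the naive libraries the median tested gene lay between 8.65 and 11.3 RPKM, and the median difference was 0.049. Ino80 itself was at 9.12 and 8.74 RPKM in primed KO against 15.9 and 20.3 RPKM in primed WT libraries, a change of -0.93 ± 0.18 (SE, limma adjusted p = 2.0e-06), and of -0.26 after quantile normalization (limma adjusted p = 2.3e-04). In the naive libraries it was at 15.9 and 15.1 RPKM in those labelled KO against 17.0 and 14.5 RPKM in WT, and did not pass (-0.020 ± 0.18, limma adjusted p = 0.975), though -0.099 after loess normalization within the state did (limma adjusted p = 0.0461). The naive libraries are therefore called labelled KO. The name primed KO follows the label too, since the fall of Ino80 there stood beside the -0.53 of all genes. Among the tested genes of its library, Ino80 stood at percentiles 53.1 and 53.5 in primed KO and 58.5 and 58.2 in primed WT. Deletion was not tested apart from this RNA level. The state labels fit their markers: the summed level of 6 naive-state markers was 2.70 to 2.87 RPKM in primed KO, 7.32 to 10.1 in primed WT, 784 to 789 in naive labelled KO and 706 to 795 in naive WT libraries. Of 6 fibroblast markers, with 1 under 1 RPKM in all libraries, the sum was 17.3 to 19.4 RPKM in primed KO and 33.6 to 46.1 in primed WT libraries, and 0.618 to 2.18 in naive libraries. Among these, S100a4, named after its values were seen, went against the sum, at 3.37 ± 0.914 RPKM in primed KO and 0.858 ± 0.469 in primed WT libraries (SD, n = 2 each; change 1.24, limma adjusted p = 2.8e-06). Of 6 primitive endoderm markers the sum was 2.19 to 2.28 RPKM in primed KO, 3.88 to 6.04 in primed WT and 3.59 to 6.94 in naive libraries, and 4 of 5 blood markers were under 1 RPKM in all libraries. The sum of all 5 was 4.16 to 4.21 RPKM in primed KO, 4.80 to 5.16 in primed WT, 20.7 to 21.9 in naive labelled KO and 17.98 to 20.7 in naive WT libraries, nearly all of it Cd68, which was likewise named after its values were seen. The part of these markers in the results below was not tested. These are bulk samples, in which fewer expressing cells and less RNA per cell cannot be told apart. The labels do not say whether replicate libraries come from different cultures. All p-values therefore rest on a spread between replicates that may be technical.

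Set side by side between the states, LIF receptor, Stat3 and Socs3 RNA stood far lower in primed than in naive libraries, and Jak2 stood higher. Because the states appear to have been scaled apart and differ in medium, matrix and state at once, these levels are a description with no test, and the rank of each gene within its own library is given as the share of tested genes with a lower value. Stat3 ranked at percentiles 41.7 and 39.0 in primed WT libraries and at 79.9 and 80.4 in naive WT libraries. Socs3 ranked at percentiles 33.5 and 34.1 in primed WT and at 66.7 and 69.2 in naive WT libraries, and Lifr at 11.3 and 9.93 in primed WT and at 41.0 and 41.1 in naive WT. In these 3 genes the ranks of the states did not overlap, and the mean rank in primed minus naive WT libraries was -30.4 for Lifr, -39.8 for Stat3 and -34.2 for Socs3, in percentile points. Jak2 ranked at 49.1 and 48.3 in primed WT and at 29.3 and 30.1 in naive WT libraries, 19.0 points higher in primed. For Il6st and Jak1 the mean rank in primed minus naive WT libraries was -13.3 and -9.28 points.

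The PIM kinase genes did not share the lower primed rank in WT cells but did in part in KO cells. Pim1 ranked at percentiles 84.7 and 86.0 in primed WT and at 83.8 and 83.7 in naive WT libraries, and Pim3 at 84.8 and 86.9 in primed WT and at 70.6 and 73.3 in naive WT. In the KO libraries Pim1 ranked at 41.1 and 40.4 in primed and at 72.6 and 73.4 in naive libraries labelled KO. The mean rank of Pim1 in primed minus naive libraries was thus -32.3 points in those labelled KO and 1.59 points in WT. That of Pim3 was -3.68 points in those labelled KO and 13.9 points in WT.

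**Figure D1:**
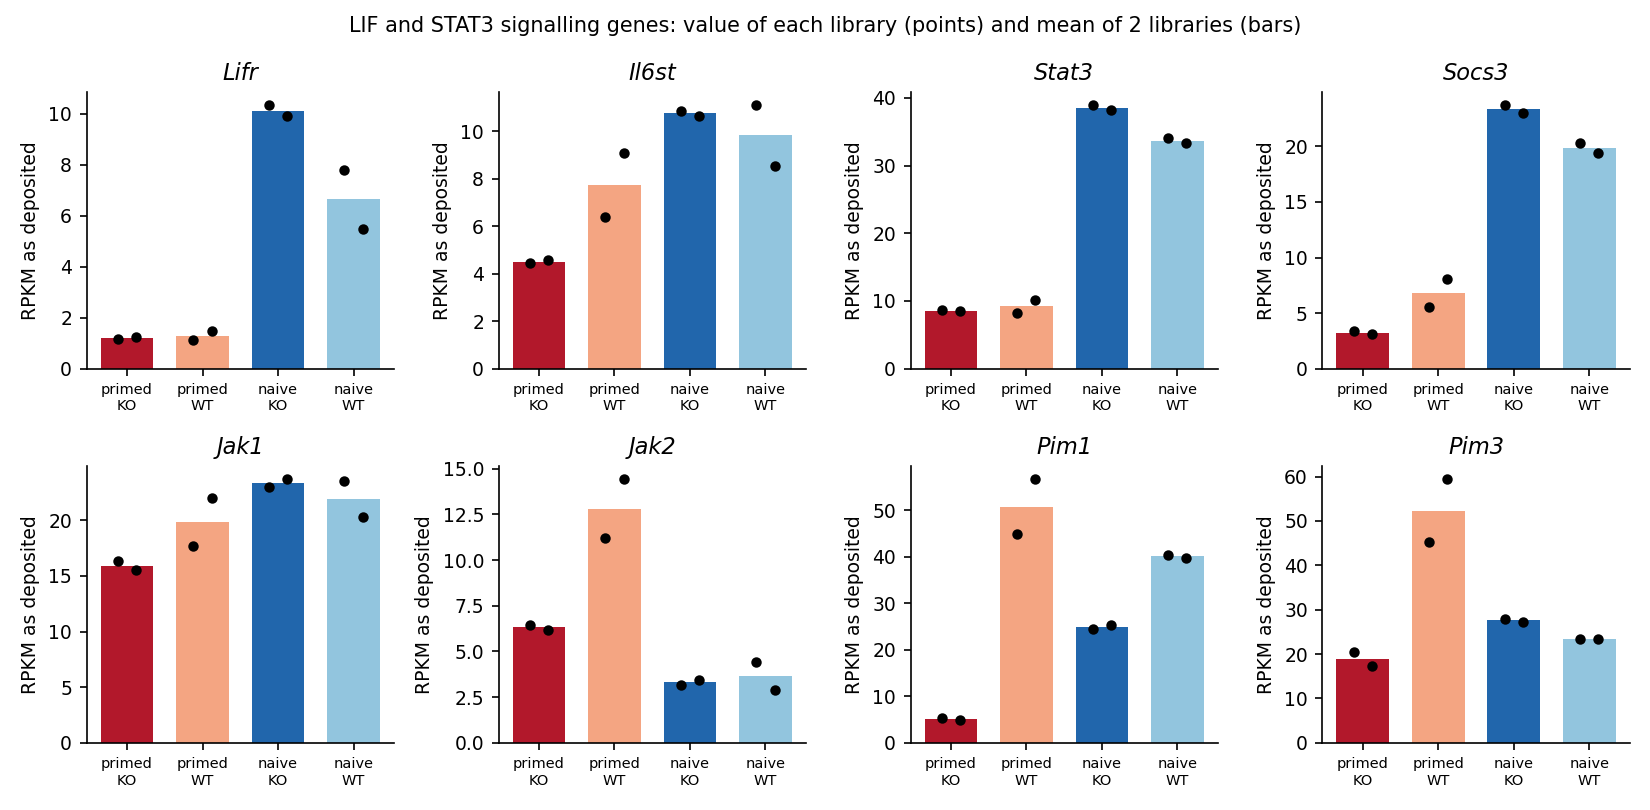
RPKM as deposited of each LIF and STAT3 signalling gene in the 8 libraries, with 1 panel per gene, points for libraries and bars for the mean of 2 libraries in primed KO, primed WT, naive KO and naive WT. Pim1 stands at 4.92 and 5.36 RPKM in primed KO libraries and at 39.8 to 56.7 RPKM in the WT libraries of both states; primed and naive levels may not share a scale.

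Within a library RPKM is per gene length, so genes can be ordered. In primed KO libraries the order of mean RPKM was Pim3, Jak1, Stat3, Jak2, Pim1, Il6st, Socs3 and Lifr, and no neighbours overlapped between the 2 libraries. In primed WT libraries it was Pim3, Pim1, Jak1, Jak2, Stat3, Il6st, Socs3 and Lifr, with overlap between Pim3 and Pim1, between Stat3 and Il6st, and between Il6st and Socs3. In naive libraries labelled KO it was Stat3, Pim3, Pim1, Jak1, Socs3, Il6st, Lifr and Jak2, with overlap between Jak1 and Socs3. In naive WT libraries it was Pim1, Stat3, Pim3, Jak1, Socs3, Il6st, Lifr and Jak2, with overlap between Pim3 and Jak1 and between Jak1 and Socs3. Pim1 thus held the second place in primed WT and the fifth in primed KO libraries.

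**Figure D2:**
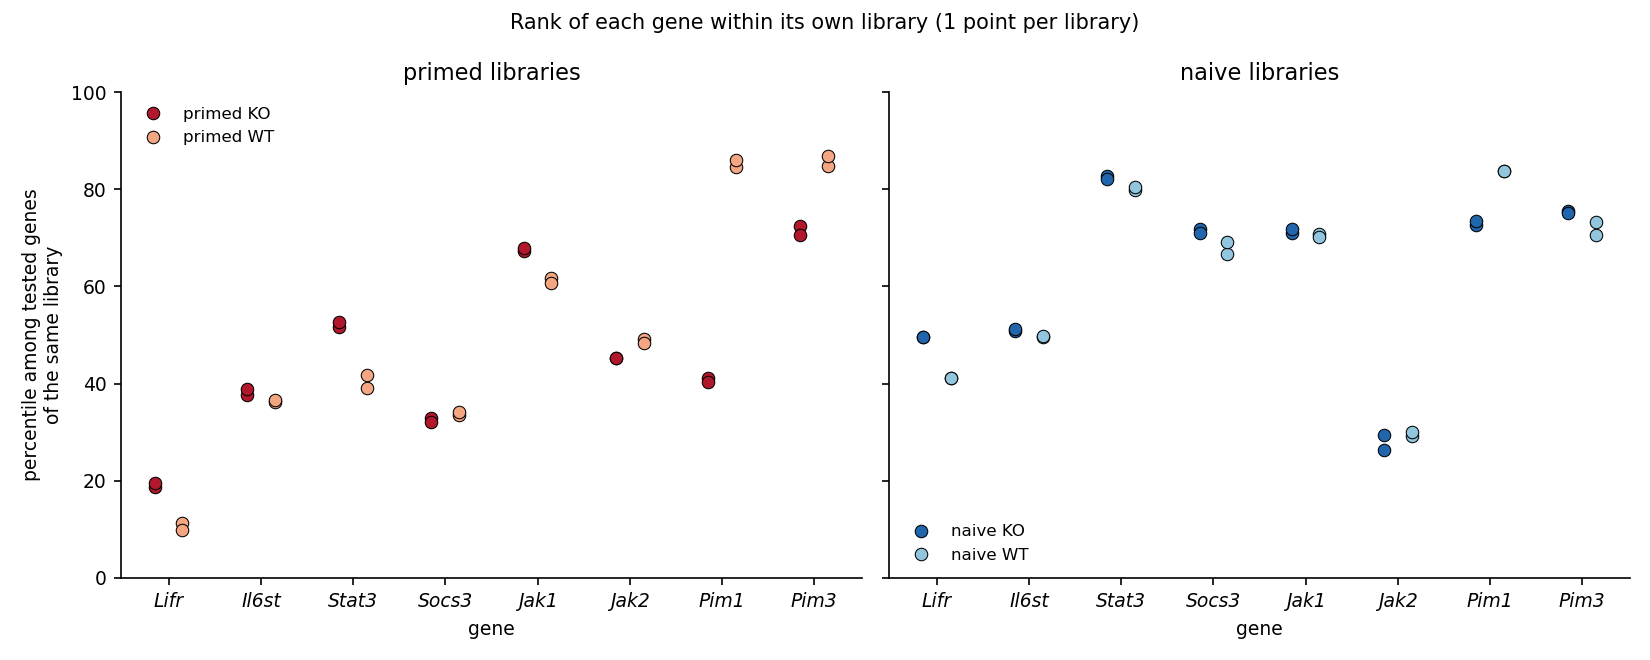
Percentile of each gene among the 13428 tested genes of its own library, with 1 point per library, primed on the left and naive on the right, KO left of WT for each gene. The widest gap between KO and WT is that of Pim1 in primed libraries, at 40.4 and 41.1 in KO and 84.7 and 86.0 in WT.

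The comparison of KO with WT within a state asks how these transcripts differ between libraries labelled KO and WT for Ino80. In primed cells the target genes Pim1 and Pim3 fell far more than the typical gene, while Stat3 and Lifr did not pass although most genes were called lower. In naive libraries labelled KO Pim1 fell as well, and no other member passed the test as deposited. Changes are differences of log2(RPKM + 1) ± SE, KO minus WT, from limma with Benjamini-Hochberg adjustment over all 13428 genes and a threshold of 0.05. In primed cells 63.4% of all tested genes passed, in naive cells 11.9%. In primed cells 5 of 8 members were called lower and 0 higher, beside 59.3% of all tested genes called lower and 4.16% called higher, so the count is near the background and the members' median of -0.76 is close to the -0.53 of all genes. After quantile normalization 3 were called lower and 4 higher, beside 34.6% and 39.4% of all genes. In the naive state 1 of 8 was called lower and 0 higher, beside 5.85% and 6.08% of all genes, and the members' median was 0.16 beside 0.049. After quantile normalization 1 was lower and 4 higher, beside 27.5% and 31.9%. The members that passed in either direction were 6 in primed and 2 in naive cells with median centring, beside 65.1% and 33.2% of all genes, and 7 and 5 after loess normalization, beside 73.5% and 57.5%. They were also 7 and 5 after quantile normalization, beside 74.0% and 59.3%. KO and WT libraries did not overlap for 6 members in primed cells, all lower in KO, and for 5 in naive cells, 4 higher and 1 lower in those labelled KO. Over all tested genes that held for 76.4% lower and 6.77% higher in primed, and for 21.0% lower and 31.2% higher in naive cells.

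**Figure D3:**
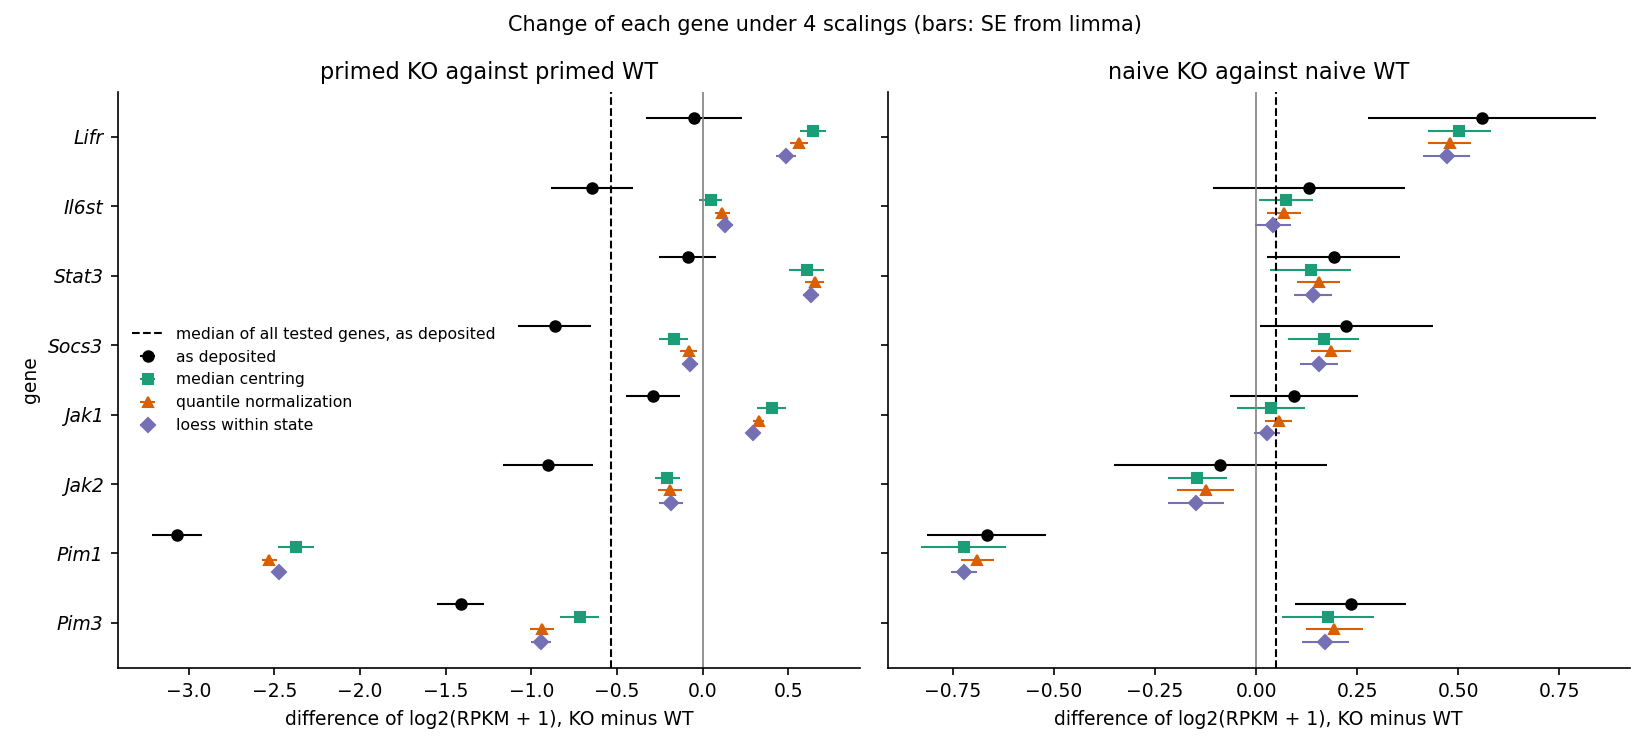
Difference of log2(RPKM + 1), KO minus WT, for each gene in primed and naive cells under 4 scalings, with limma's SE as bars and the median of all tested genes as deposited as a dashed line at -0.53 in primed and 0.049 in naive. Pim1 lies left of 0 in both panels under all 4 scalings, while Lifr, Il6st, Stat3 and Jak1 change sign between the deposited and the other scalings in primed cells.

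Pim1 showed the largest change of the 8 genes, in both states and under all 4 scalings. It encodes a constitutively active serine/threonine kinase whose amount is set mainly by transcription and turnover. In primed cells it stood at 5.36 and 4.92 RPKM in KO libraries, against 44.9 and 56.7 RPKM in WT libraries. The groups lay far apart, with mean levels of 5.14 ± 0.313 RPKM in KO and 50.8 ± 8.30 in WT (SD, n = 2 each), a factor of 9.88 lower in KO. The change was -3.07 ± 0.15 (limma adjusted p = 3.5e-92), and 0.283% of all tested genes had a lower one. As the prior degrees of freedom were infinite in this fit, every variance comes from the trend and such p-values are very small. After quantile normalization the change was -2.53 ± 0.041 (limma adjusted p = 5.2e-09).

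Among naive libraries, Pim1 was at 24.5 and 25.3 RPKM in those labelled KO, against 40.5 and 39.8 RPKM in WT libraries. Each group was tight and they did not overlap. The change was -0.67 ± 0.15 (limma adjusted p = 1.8e-04), a factor of 1.61 lower in those labelled KO, and -0.69 ± 0.041 after quantile normalization (limma adjusted p = 6.9e-06). Without naive KO replicate 1 the change was -0.65 and did not pass (limma adjusted p = 0.0659). Pim1 is the 1 member called lower in both states, as were 628 of all tested genes (4.68%). The fall was larger in primed than in naive cells, by -2.40 ± 0.21 (limma adjusted p = 4.7e-28), beside a median difference between the states of -0.59 over all genes, and by -1.84 after quantile normalization (limma adjusted p = 3.0e-07).

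Pim3, a closely related kinase gene, fell in primed cells and did not pass as deposited in naive ones. In primed cells it stood at 20.5 and 17.4 RPKM in KO libraries, against 45.3 and 59.4 RPKM in WT libraries, with no overlap. The change was -1.41 ± 0.14 (limma adjusted p = 1.8e-23), or -0.94 ± 0.069 after quantile normalization (limma adjusted p = 6.1e-06), and 7.92% of all tested genes had a lower one as deposited. Naive libraries labelled KO held 28.0 and 27.3 RPKM of Pim3, against 23.4 and 23.3 RPKM in WT libraries. The labelled KO libraries were the higher, by 0.23 ± 0.14, which did not pass as deposited (limma adjusted p = 0.308), while 0.19 after quantile normalization did (limma adjusted p = 0.0417). The effects in the states differed by -1.65 ± 0.19 (limma adjusted p = 1.3e-15) and by -1.13 after quantile normalization (limma adjusted p = 3.5e-05). How reads shared by such related genes were assigned, and the strand counted, are not stated in the sources used here.

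The ratio of the PIM genes to each other and to Stat3 within a library carries no scaling factor common to the whole library. A shift that depends on expression level does not cancel in such a ratio. Naive WT replicates 1 and 2, for example, held 4.42 and 2.88 RPKM of Jak2 but 23.4 and 23.3 RPKM of Pim3. This bears on the other ratios below too, and no ratios of other gene pairs were made as a background. Pim1 stood at 0.262 and 0.283 times Pim3 in primed KO libraries, against 0.993 and 0.955 times in primed WT. In naive libraries it stood at 0.876 and 0.927 times Pim3 in those labelled KO, against 1.73 and 1.71 times in WT. In both states the ratio was lower in the KO libraries without overlap. Pim1 stood at 0.622 and 0.582 times Stat3 in primed KO libraries, against 5.44 and 5.61 times in primed WT, and at 0.630 and 0.661 times in naive libraries labelled KO, against 1.19 and 1.19 times in naive WT. The primed WT libraries thus had the highest Pim1 to Stat3 ratios, and KO libraries of both states the lowest.

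Socs3, the feedback inhibitor, fell in primed cells as deposited, and hardly changed its place among the genes of its library. In primed cells it stood at 3.38 and 3.08 RPKM in KO libraries, against 5.56 and 8.05 RPKM in WT libraries, with no overlap and a spread in WT that is wide beside the gap. The change of -0.87 ± 0.21 passed as deposited (limma adjusted p = 1.5e-04), but -0.082 after quantile normalization did not (limma adjusted p = 0.178), nor did -0.17 with median centring (limma adjusted p = 0.104). Its rank, at percentiles 33.0 and 32.1 in primed KO and 33.5 and 34.1 in primed WT libraries, differed by less than 2 points. Naive Socs3 was at 23.7 and 23.0 RPKM in libraries labelled KO, against 20.3 and 19.4 RPKM in WT libraries. That difference of 0.22 ± 0.21 did not pass as deposited (limma adjusted p = 0.604) and did after quantile normalization (0.19, limma adjusted p = 0.0139). The effects in the states differed by -1.09 ± 0.30 (limma adjusted p = 0.00137), and by -0.27 after quantile normalization (limma adjusted p = 0.0116).

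Stat3 itself did not pass as deposited in either state, while its rank was higher in primed KO than in primed WT libraries. In primed cells it stood at 8.62 and 8.45 RPKM in KO libraries, against 8.26 and 10.1 RPKM in WT libraries, and the KO values lay between the WT values. The difference was -0.089 ± 0.17 (limma adjusted p = 0.658). With the whole libraries aligned it was positive, 0.65 ± 0.053 after quantile normalization (limma adjusted p = 1.1e-05) and 0.61 ± 0.10 with median centring (limma adjusted p = 2.2e-04). Stat3 ranked at percentiles 51.7 and 52.6 in primed KO and at 41.7 and 39.0 in primed WT libraries. Naive Stat3 was at 38.9 and 38.2 RPKM in libraries labelled KO, against 34.0 and 33.3 RPKM in WT libraries, without overlap. The difference of 0.19 ± 0.17 did not pass (limma adjusted p = 0.549), and 0.16 after quantile normalization did (limma adjusted p = 0.035).

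The Socs3 to Stat3 ratio, a measure of the feedback gene beside its activator, was 0.392 and 0.365 in primed KO libraries, against 0.673 and 0.797 in primed WT libraries. In naive cells it was 0.609 and 0.601 in libraries labelled KO, against 0.596 and 0.584 in WT libraries. The primed groups were far apart, and the naive groups lay close together without overlap.

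Of the receptor chains, Lifr stood higher in naive libraries labelled KO, without passing as deposited, and Il6st fell in primed KO libraries by about the median of all genes. Lifr, the LIF-binding chain, stood at 1.18 and 1.22 RPKM in primed KO libraries, against 1.11 and 1.46 RPKM in primed WT libraries, and the KO values lay within the WT range. That difference of -0.051 ± 0.28 did not pass as deposited (limma adjusted p = 0.886), yet it was 0.56 ± 0.053 after quantile normalization (limma adjusted p = 2.5e-05), and its percentiles were 18.6 and 19.4 in primed KO against 11.3 and 9.93 in primed WT libraries. Naive Lifr was at 10.3 and 9.91 RPKM in libraries labelled KO, against 7.79 and 5.49 RPKM in WT libraries. Its percentiles were 49.5 and 49.6 in those labelled KO against 41.0 and 41.1 in naive WT libraries. The groups did not overlap. Naive WT replicates lay far apart in RPKM, though not in rank, and the difference of 0.56 ± 0.28 did not pass (limma adjusted p = 0.209). It passed after quantile normalization (0.48 ± 0.053, limma adjusted p = 1.5e-04) and as deposited without naive WT replicate 1 (0.78, limma adjusted p = 0.0289).

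Il6st encodes gp130, the chain shared by the receptors of the interleukin-6 family. It stood at 4.44 and 4.57 RPKM in primed KO libraries, against 6.37 and 9.09 RPKM in primed WT libraries. The difference of -0.65 ± 0.24 passed as deposited (limma adjusted p = 0.0123), near the -0.53 of all genes, and turned to 0.12 after quantile normalization (limma adjusted p = 0.0348). Its call ended without primed KO replicate 1 (-0.63, limma adjusted p = 0.113), primed KO replicate 2 (-0.66, limma adjusted p = 0.105) or primed WT replicate 2 (-0.42, limma adjusted p = 0.151). Naive Il6st was at 10.9 and 10.7 RPKM in libraries labelled KO, against 11.1 and 8.54 RPKM in WT libraries, which overlapped (0.13 ± 0.24, limma adjusted p = 0.832). The Lifr to Il6st ratio was 0.265 and 0.267 in primed KO against 0.175 and 0.160 in primed WT libraries. It was 0.952 and 0.931 in naive libraries labelled KO against 0.703 and 0.643 in naive WT libraries. The receptor ratio was thus higher in the KO libraries of both states, without overlap.

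Of the kinase genes, Jak2 fell in primed cells and Jak1 did not pass as deposited. Jak1, the main JAK of gp130 signalling, stood at 16.3 and 15.5 RPKM in primed KO libraries, against 17.7 and 22.0 RPKM in primed WT libraries. The difference of -0.29 ± 0.16 did not pass (limma adjusted p = 0.0927), though without primed WT replicate 1 it did (-0.44, limma adjusted p = 0.00165), and after quantile normalization it was 0.33 ± 0.034 (limma adjusted p = 4.7e-05). Jak2, which also serves cytokine receptors outside the gp130 family, stood at 6.47 and 6.19 RPKM in primed KO libraries, against 11.2 and 14.4 RPKM in primed WT libraries. It fell by 0.90 ± 0.26 (limma adjusted p = 0.00142) and by 0.19 ± 0.071 after quantile normalization (limma adjusted p = 0.039). Without primed KO replicate 2 the change was -0.87 and did not pass (limma adjusted p = 0.0608). Jak2 stood at 0.396 and 0.399 times Jak1 in primed KO libraries, against 0.633 and 0.656 times in primed WT, without overlap. Naive Jak1 was at 23.0 and 23.7 RPKM in libraries labelled KO, against 23.5 and 20.3 RPKM in WT libraries. Jak2 stood there at 3.19 and 3.44 RPKM in those labelled KO, against 4.42 and 2.88 RPKM in WT libraries. Both overlapped and neither passed (0.094 ± 0.16 and -0.089 ± 0.26, limma adjusted p = 0.813 and 0.909).

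Whether the effect of KO differs between the states was tested for each gene as primed minus naive. As deposited 49.6% of all tested genes passed. Of the 8 members 4 had a lower effect in primed cells, Pim1, Pim3, Socs3 and Il6st, and 0 a higher one, beside 47.4% and 2.16% of all tested genes. After quantile normalization Pim1, Pim3 and Socs3 were lower and Stat3 and Jak1 higher, beside 30.5% and 33.9% of all genes, or 64.4% in either direction. With median centring and after loess normalization 5 members passed in either direction too, beside 46.3% and 63.4% of all genes. The difference for Stat3 was then 0.50 (limma adjusted p = 6.3e-04) and for Jak1 0.27 (limma adjusted p = 0.00155), while as deposited they were -0.28 and -0.39 and did not pass (limma adjusted p = 0.3 and 0.132). The Il6st difference of -0.78 ± 0.34 (limma adjusted p = 0.0437) rests on single libraries, as leaving out any 1 of 6 libraries, all but WT replicate 1 of each state, ended it, with the adjusted p up to 0.188, and it was 0.046 after quantile normalization (limma adjusted p = 0.519). Without primed WT replicate 1 the differences of Stat3, Jak1 and Jak2 also passed as deposited (-0.41, -0.54 and -0.98, limma adjusted p = 0.0275, 0.00384 and 0.0215). Those of Lifr and Jak2 did so without naive WT replicate 1 (-0.83 and -1.05, limma adjusted p = 0.0271 and 0.0052).

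Other genes of the pathway were counted in 7 lists with 59 names in all, and the third kinase of the PIM family moved against the others. Pim2, which like Pim1 and Pim3 is a STAT3 target, stood at 264 and 242 RPKM in primed KO libraries, against 80.1 and 94.7 RPKM in primed WT libraries. It rose by 1.53 ± 0.13 (limma adjusted p = 1.2e-31), and by 1.71 after quantile normalization (limma adjusted p = 1.0e-07). In naive libraries it stood at 8.29 and 9.13 RPKM in those labelled KO, against 7.52 and 5.27 RPKM in WT, and rose by 0.41 ± 0.13 (limma adjusted p = 0.0147). That naive call ended without any 1 of 5 libraries, both naive KO, both primed KO and naive WT replicate 2 (limma adjusted p up to 0.52). Of 17 other STAT3 targets, Pim2 among them, 12 fell and 1 rose in primed cells, beside 59.3% lower and 4.16% higher over all genes, with a median of -0.52 beside -0.53. After quantile normalization 5 fell and 6 rose, beside 34.6% and 39.4%. Bcl3, an atypical IkB protein, fell to 0.181 ± 0.0117 RPKM in primed KO, against 2.16 ± 0.770 in primed WT (SD, n = 2 each; change -1.40, limma adjusted p = 4.4e-07). Ier3, an early response gene, fell to 3.84 ± 0.567 RPKM in primed KO, against 10.7 ± 1.25 in primed WT (change -1.28, limma adjusted p = 1.4e-05). In the naive state 2 of the 17 rose, Pim2 and the AP-1 gene Fos, and 0 fell, beside 6.08% higher and 5.85% lower over all genes, with a median of 0.17 beside 0.049. Fos stood at 30.3 ± 0.300 RPKM in naive libraries labelled KO and at 20.9 ± 2.46 in naive WT (change 0.52, limma adjusted p = 0.0113), a call that ended without either naive KO replicate or naive WT replicate 2 (limma adjusted p up to 0.312).

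Among the ligands and the other kinases, Lif and Jak3 stood out. Lif, the gene of the cytokine itself, stood at 9.69 and 8.53 RPKM in naive libraries labelled KO, against 4.54 and 2.75 RPKM in naive WT libraries. It rose by 1.15 ± 0.27 (limma adjusted p = 4.9e-04) and by 1.08 after quantile normalization (limma adjusted p = 2.6e-06), though without naive KO replicate 1 it did not pass as deposited (limma adjusted p = 0.122). In primed cells Lif stood at 5.18 and 4.76 RPKM in KO libraries, against 3.26 and 4.51 RPKM in WT libraries, and did not pass as deposited (0.30 ± 0.27, limma adjusted p = 0.33), while 1.05 after quantile normalization did (limma adjusted p = 6.8e-07). Of 7 cytokines of the family 4 were tested, and in primed cells 1 fell, Clcf1, to 0.211 ± 0.0307 RPKM in KO against 1.79 ± 0.830 in WT libraries (change -1.17, limma adjusted p = 5.5e-06). Clcf1 reached 1 RPKM only in the primed WT libraries. It thus passed the filter only through the group where it was high, which favours a fall. Jak3, a JAK best known from lymphocytes, stood at 11.2 and 9.77 RPKM in primed KO libraries, against 3.07 and 4.86 RPKM in primed WT libraries. It rose by 1.23 ± 0.18 in primed cells (limma adjusted p = 1.4e-10), against the direction of most genes. In naive libraries Jak3 stood at 42.9 and 41.0 RPKM in those labelled KO, against 23.6 and 22.1 RPKM in WT, a rise of 0.85 ± 0.18 (limma adjusted p = 9.5e-05) that did not pass without naive KO replicate 1 (limma adjusted p = 0.0871). Of the other 6 JAK and STAT genes listed 5 fell in primed cells and 0 of the 6 passed in naive cells. Over all tested genes 59.3% fell in primed cells and 11.9% passed in naive cells. Stat6 stood at 5.13 ± 0.259 RPKM in primed KO against 16.5 ± 3.45 in primed WT (change -1.503, limma adjusted p = 6.7e-11) and Stat5b at 2.13 ± 0.0953 against 7.80 ± 2.11 (change -1.47, limma adjusted p = 8.3e-07). Both also fell after quantile normalization, by 0.82 and 0.69.

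**Figure D4:**
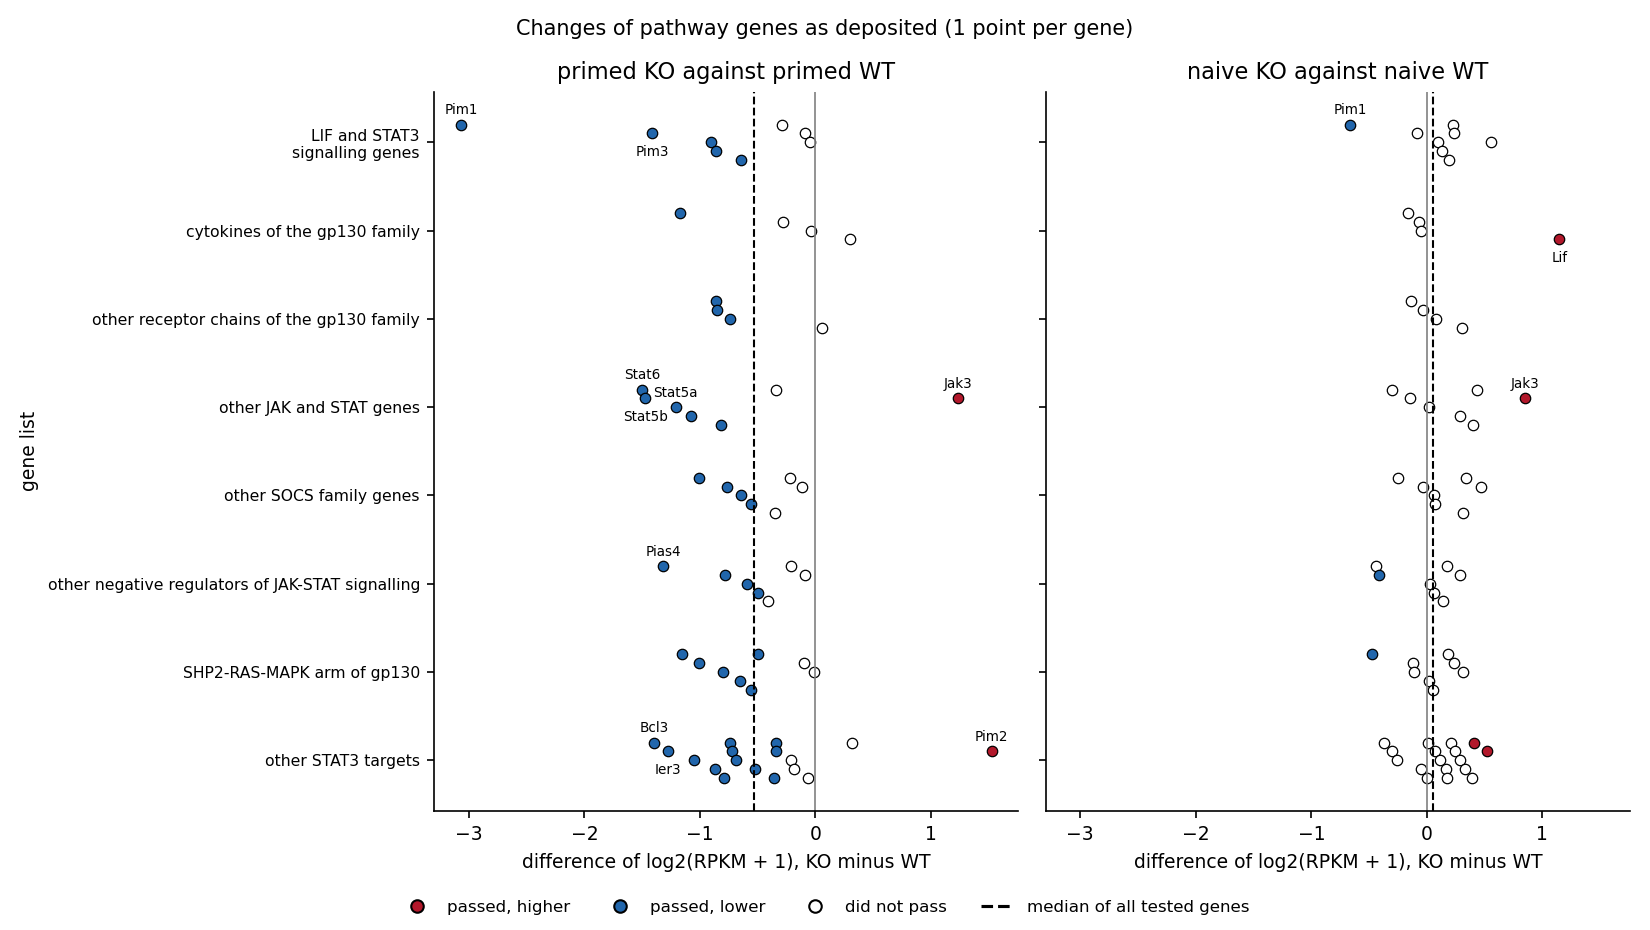
Difference of log2(RPKM + 1), KO minus WT, as deposited, for the LIF and STAT3 signalling genes and the tested genes of 7 further pathway lists in primed and naive cells, with 1 point per gene, filled where limma's adjusted p is under 0.05, and the median of all tested genes as a dashed line. Pim1 is the lowest point of the primed panel, and Pim2 and Jak3 lie alone at the right of 0 among those that passed there.

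The remaining lists held mostly genes that went with the median of primed libraries. Of 6 other receptor chains 4 were tested and 3 fell in primed cells, among them Il6ra, the interleukin-6 binding chain, at 0.202 ± 0.00776 RPKM in KO against 1.19 ± 0.296 in WT libraries (change -0.86, limma adjusted p = 0.00493). Of 7 other SOCS family genes 4 fell, among them Socs1 (-1.005, limma adjusted p = 7.3e-04) and Socs7 (-0.77, limma adjusted p = 0.00114). Of 7 other negative regulators 4 fell, among them the SUMO ligase genes Pias4 (-1.32, limma adjusted p = 2.0e-19) and Pias1 (-0.78, limma adjusted p = 0.00123). Of 8 genes of the SHP2 to RAS and MAPK arm 6 fell, among them the docking protein gene Gab1 (-1.01, limma adjusted p = 5.0e-16). Over all tested genes 59.3% fell and 4.16% rose as deposited, and 34.6% fell and 39.4% rose after quantile normalization. The medians of these 4 lists were -0.79, -0.56, -0.50 and -0.60 beside -0.53 of all genes, and 0 of their members rose as deposited. After quantile normalization 1, 4, 4 and 2 of them rose and 1, 1, 1 and 4 fell, so most of these calls rest on the deposited scale. Il6ra, Socs1, Pias4 and Gab1 fell under it too, while Socs7 and Pias1 did not pass; with median centring Il6ra and Gab1 did not either (limma adjusted p = 0.104 and 0.0769). Single libraries decided some of the deposited calls: without primed KO replicate 2 those of Socs1, Socs7 and Pias1 ended (limma adjusted p = 0.0564, 0.0553 and 0.053). That of Il6ra ended without either primed KO replicate or primed WT replicate 2 (limma adjusted p up to 0.081). In the naive state the 4 lists held 2 called genes, both lower, where 5.85% of all tested genes were called lower and 6.08% higher. Pias4, 1 of the 2, stood at 26.7 ± 0.128 RPKM in libraries labelled KO against 35.9 ± 0.0668 in WT (change -0.41, limma adjusted p = 0.0319). The naive Pias4 call ended without any 1 of 6 libraries, those of the naive state and of primed KO (limma adjusted p up to 0.412).

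Set against naive cells, the effect of KO in primed cells was higher for 1 and lower for 25 of the 54 tested genes of the 7 lists as deposited, which is near the 2.16% higher and 47.4% lower of all tested genes. The higher one was Pim2, by 1.12 ± 0.18 (limma adjusted p = 1.2e-08). The largest lower differences among STAT3 targets were those of Ier3 (-1.61 ± 0.39, limma adjusted p = 2.4e-04) and Fos (-1.57 ± 0.22, limma adjusted p = 5.5e-11). Those of Stat6 (-1.52, limma adjusted p = 9.7e-06) and Stat5a (-1.49, limma adjusted p = 5.7e-04) also lay well below the median of -0.59. Clcf1, Pias4, Gab1 and Pias2 differed by -1.12, -0.91, -0.88 and -0.78 (limma adjusted p = 0.00391, 4.6e-05, 1.9e-06 and 2.4e-05), and none of the 4 passed with median centring. The Clcf1 call also ended without naive KO replicate 1, and Clcf1 had passed the filter only through its primed WT values. Cish, Il6ra and Socs7 differed by -0.96, -0.94 and -0.83 (limma adjusted p = 0.0307, 0.0405 and 0.0189), calls that ended without any 1 of the same 6 libraries as that of Il6st (limma adjusted p up to 0.197, 0.214 and 0.138).

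The genes most like each member were sought by the root mean square difference of log2(RPKM + 1), centred on the mean of each state, over the 8 libraries, among 10427 genes with a mean of at least 5 RPKM in at least 1 group. This measure also holds the shifts of whole libraries. For Pim1 the nearest were 2410003L11Rik at 0.08 and Fabp3 at 0.112, the largest distances to a nearest pair among the 8 members. For Pim3 they were Rab34 at 0.0546 and Reep4 at 0.0553. For Socs3 they were Gigyf1 at 0.032 and Ncoa3 at 0.0358, and for Stat3 Ankrd17 at 0.0251 and Rtel1 at 0.0255. Lifr lay nearest to 4933427D14Rik and 2900097C17Rik (0.0422 and 0.045) and Il6st to Taf6l and Efcab14 (0.0212 and 0.0221). Jak1 lay nearest to Lig3 and Zfp146 (0.0112 and 0.0151) and Jak2 to Pdik1l and Clk2 (0.0249 and 0.0319).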

How the data were processed

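RNA-seq values of 8 libraries were used, 2 per group. The authors deposited RPKM values, 1 per gene and library. Per the submitters' processing notes, cutadapt 1.9, STAR 2.5.2b, featureCounts 1.5.1 and affy were used with genome build mm9. Parameters, annotation, strand and any further scaling are not given in the sources used here. No value is 0 and the files hold 0 spike-in rows, so depth cannot be had from them, and the number of libraries limits precision. Values were taken as log2(RPKM + 1), which understates changes of low genes. The 13428 of 24505 genes that reached 1 RPKM in 2 or more libraries were fitted with limma 3.58.1 in R 4.3.3 (4 group means, variance trend), with Benjamini-Hochberg adjustment over all genes at 0.05. The procedure was tested on simulated data with independent noise per gene and no shift of whole libraries. That test does not cover such shifts. Prior degrees of freedom were infinite as deposited and 3.71 after quantile normalization, with 4 residual ones. Naive and primed libraries were not tested against each other, as they appear to have been scaled apart. Alternatives were a pseudocount of 0.1, other filters, median centring, quantile and loess normalization, fits of each state alone, without a trend, with weights per library or with the replicate number as a block, and leaving out each library (the lone replicate left is taken to vary as other groups do). Motifs and promoters came from RefSeq tables, which matched all 8 members. Figures used matplotlib 3.10.9 in Python 3.11.15. From each list up to 2 called genes per direction and comparison, those with the largest change, are named with values, and Ino80 checks the labels. Members, lists and tests were chosen with earlier results of these data known. A few genes that this rule names are not reported here.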

Additional observations from a re-analysis of the deposited data

Results flagged for a closer look

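The effect of KO differed between the states, tested as primed minus naive in the limma fit, for 4 of the 8 genes as deposited. The differences were -2.40 for Pim1, -1.65 for Pim3, -1.09 for Socs3 and -0.78 for Il6st (limma adjusted p = 4.7e-28, 1.3e-15, 0.00137 and 0.0437). The median over all tested genes was -0.59, and 49.6% of them passed, 47.4% with a lower effect in primed cells. The count of 4 of 8 is thus near the share of all genes. After quantile normalization the differences of Pim1, Pim3 and Socs3 passed (-1.84, -1.13 and -0.27) and that of Il6st, 0.046, did not (limma adjusted p = 0.519). In primed cells all 4 stood lower in KO than in WT libraries. In naive cells Pim1 also stood lower in the libraries labelled KO, whereas Pim3 and Socs3 stood higher there without overlap and Il6st overlapped.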

How the results depend on the processing

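As deposited 1602 genes passed in the naive state, against 4456 with median centring, 7967 after quantile and 7719 after loess normalization, 2526 in the naive state alone, 908 without a variance trend, 942 with the replicate block, and 552 to 2946 when leaving out 1 library. Of the 8 members 1 passed there, 2 with median centring, 5 after quantile and 5 after loess normalization, and 0 to 2 when leaving out 1 library. For the primed state 8517 genes passed and 5539 to 9960 when leaving out 1 library, with 3 to 6 members, and for the difference 6658 and 3457 to 9269, with 3 to 7 members. The higher share of primed calls was 6.56% as deposited, 63.8% with median centring, 53.2% after quantile and 50.3% after loess normalization, and of the difference 4.36%, 63.1%, 52.7% and 51.6%. In primed cells the sign turned, with median centring, quantile and loess normalization in that order, for Lifr (0.64, 0.56, 0.49), Il6st (0.047, 0.12, 0.13), Stat3 (0.61, 0.65, 0.63) and Jak1 (0.40, 0.33, 0.29). The difference turned likewise for Lifr (0.14, 0.085, 0.015), Stat3 (0.47, 0.50, 0.49) and Jak1 (0.37, 0.27, 0.26), and for Il6st with the last pair (0.046, 0.087). Leaving out 1 library gave both signs for naive Il6st (-0.040 to 0.30), Jak1 (-0.0084 to 0.20) and Jak2 (-0.33 to 0.15) and for primed Lifr (-0.16 to 0.058) and Stat3 (-0.22 to 0.041). The cause was not tested. The labels do not say that replicate numbers pair libraries, and the deviations of same-numbered libraries correlated at 0.314 in the naive and -0.036 in the primed state. The replicate block gave 942 naive, 7672 primed and 5171 difference calls, and of the members' calls it ended that of the Il6st difference (limma adjusted p = 0.0892), and of the other named genes' those of naive Pim2, Fos and Pias4 (limma adjusted p = 0.169, 0.118 and 0.219) and of the Il6ra and Socs7 differences (limma adjusted p = 0.051 and 0.0562). In the comparisons in which they were called, the other pathway genes named by the rule kept their sign under these alternatives. Pim1 kept its sign in all 3 comparisons under every alternative run, as did Pim3, Socs3 and Jak2 in primed cells.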

Other observations

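Taken as a family, the summed level of Pim1, Pim2 and Pim3 was 290 and 265 RPKM in primed KO libraries, against 170.3 and 211 RPKM in primed WT libraries. Pim1 made up 1.85% and 1.86% of that sum in primed KO, against 26.4% and 26.9% in primed WT libraries. Pim2 made up 91.1% and 91.6% in primed KO, against 47.0% and 44.9% in primed WT libraries. In naive libraries the sum was 60.8 and 61.7 RPKM in those labelled KO, against 71.3 and 68.3 RPKM in WT, with Pim1 at 40.3% and 41.0% in those labelled KO and 56.7% and 58.2% in WT. This sum was chosen after its values were seen and was not tested.

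Cntfr, the receptor chain of ciliary neurotrophic factor, stood at 52.0 and 48.8 RPKM in primed KO and 44.8 and 52.1 RPKM in primed WT libraries, where Lifr was between 1.11 and 1.46 RPKM. In naive libraries it stood at 2.20 and 1.76 RPKM in those labelled KO and 1.76 and 1.10 RPKM in WT. It was singled out after its values were seen.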
